A study of Homo sapiens with 4 samples.

Results

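The nuclear-encoded genes of the mitochondrial respiratory chain and ATP synthase were followed after knockdown of NIPBL in NUGC3 cells, a line from human stomach cancer. NIPBL is the protein that loads the cohesin ring onto DNA. Members were all protein-coding Ensembl rows whose symbol starts with NDUFA, NDUFB, NDUFC, NDUFS or NDUFV and a digit, is SDHA, SDHB, SDHC or SDHD, or starts with UQCR, ATP5 or COX and a digit from 4 to 8. This gave 93 rows under 89 symbols, of 20269 protein-coding and 53777 Ensembl rows. RNA-seq was made from total RNA of 4 libraries: 2 from cells transfected with a scramble control, and 1 each from cells with NIPBL hairpin 1 and NIPBL hairpin 7, which together form the knockdown group. The labels of all 4 libraries carry the term DOX without explaining it, and give no dose, time or culture. The label of the second scramble library is that of the first with a suffix, so it may be a repeat of the same cells, and p-values measure only the spread between these libraries. Each hairpin is a single library, so the difference between hairpins has no replicate check.

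The respiratory chain passes electrons from NADH and succinate through complexes I and II to ubiquinone, then through complex III and cytochrome c to complex IV, where oxygen is reduced. Complexes I, III and IV pump protons across the inner mitochondrial membrane, and ATP synthase, here called complex V, uses the gradient to make ATP. Most subunits are encoded in the nucleus and a smaller set in mitochondrial DNA. The nuclear genes are known targets of the transcription factors NRF1, GABP (an ETS factor) and YY1.

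The promoters of 4 members are shown because their values separate the knockdown from the scramble libraries (NDUFA4, UQCR10) or one hairpin from the other (SDHB, COX6A1). Each is the 250 bases before the RefSeq start on GRCh38.p14, written 5′ to 3′ on the gene's strand, at chr7:10940154-10940403 (minus) for NDUFA4, chr22:29767119-29767368 (plus) for UQCR10, chr1:17054033-17054282 (minus) for SDHB and chr12:120437863-120438112 (plus) for COX6A1. Capitals mark matches, on either strand, to GCGCATGCG (NRF1) or CCGGAAG (ETS). The SDHB window also holds AAGATGGCG (YY1), but that match reaches past the start and is not printed.
NDUFA4: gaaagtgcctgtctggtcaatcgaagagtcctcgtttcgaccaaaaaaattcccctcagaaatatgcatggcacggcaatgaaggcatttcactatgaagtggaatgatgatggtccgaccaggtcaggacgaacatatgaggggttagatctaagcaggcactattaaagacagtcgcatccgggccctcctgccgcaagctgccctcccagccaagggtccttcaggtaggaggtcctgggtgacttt
UQCR10: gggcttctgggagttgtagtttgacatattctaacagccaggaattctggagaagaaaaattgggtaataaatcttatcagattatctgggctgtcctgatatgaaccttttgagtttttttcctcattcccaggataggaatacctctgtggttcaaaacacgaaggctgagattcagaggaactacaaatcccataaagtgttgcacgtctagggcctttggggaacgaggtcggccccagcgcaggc
SDHB: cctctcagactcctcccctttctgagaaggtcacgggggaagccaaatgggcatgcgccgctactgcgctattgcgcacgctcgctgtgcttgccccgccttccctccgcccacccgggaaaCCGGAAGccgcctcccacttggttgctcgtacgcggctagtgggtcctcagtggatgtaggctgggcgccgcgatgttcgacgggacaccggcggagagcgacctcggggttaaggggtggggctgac
COX6A1: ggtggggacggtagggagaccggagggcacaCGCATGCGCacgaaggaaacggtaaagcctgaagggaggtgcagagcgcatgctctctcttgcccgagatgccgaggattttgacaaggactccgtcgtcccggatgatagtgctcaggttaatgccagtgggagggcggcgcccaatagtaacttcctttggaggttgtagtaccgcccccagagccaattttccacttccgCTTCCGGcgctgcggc
The NDUFA4 and UQCR10 stretches hold none of these letters. COX6A1 holds an NRF1 and an ETS match, and SDHB an ETS match. These 4 were picked by their values, and a link between the letters and the changes was not tested. RefSeq windows of 300 bases, 250 before to 50 after a start, were found for 65 of the 79 members that could be tested, giving 78 windows. The NRF1 letters stood in 11 of these (14.1%), against 3.29% of 14002 windows of all tested genes and 1.92% of all 35116 windows. The YY1 letters stood in 10 (12.8%), against 3.60% and 1.75%, and the ETS letters in 21 (26.9%), against 17.95% and 10.3%. At least 1 of the 3 was present in 34 windows (43.6%), against 23.1% of windows of tested genes.

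Values are FPKM, fragments scaled to transcript length and to the fragments mapped, so levels can be set side by side across genes of different length. NIPBL itself stood at 23.92 and 23.11 FPKM in the scramble libraries, 7.27 with hairpin 1 and 9.17 with hairpin 7. Its knockdown mean was 35.0% of the scramble mean, a change of -1.42 ± 0.14 on the log2(FPKM + 1) scale (± standard error, used for all log2 changes below), with a limma adjusted p of 0.0218. That call was lost without the first scramble library (-1.39, limma adjusted p 0.257), without the second (-1.44, 0.261), with the scramble libraries averaged (0.281) and with every row above 0 in a library (0.118). Library sums ran from 682076 to 749446 FPKM, lowest with hairpin 7, and read depth is unknown. The 8 gastric and epithelial markers summed to between 4081 and 5102 FPKM in each library, and of the 6 tested, 3 (EPCAM, KRT8 and KRT18) lay below and 3 (KRT19, CDH1 and MUC1) above scramble with both hairpins. EPCAM stood at 209.83 and 208.81 FPKM in scramble against 196.11 and 166.28 with hairpins 1 and 7, KRT18 at 2092.32 and 2131.15 against 1368.29 and 1754.45, and KRT19 at 655.38 and 661.43 against 982.21 and 1061.62 (0.63 ± 0.11, limma adjusted p 0.0616). The 2 markers not tested were CLDN18 and TFF1, both gastric genes. CLDN18 stayed between 0.02 and 0.05 FPKM, and TFF1 stood at 0 and 0.17 in scramble against 2.48 and 1.02 with hairpins 1 and 7. Markers of immune, endothelial and stromal cells, 9 rows of 10 symbols, summed to 18.98 and 22.87 FPKM in scramble and to 41.19 and 45.13 in knockdown, with PTPRC and COL3A1 listed at 0 throughout. Most of that sum was CD68, at 12.41 and 17.08 against 31.48 and 37.71 FPKM (limma adjusted p 0.0527). The stromal marker COL1A1 stood at 6.57 and 5.75 FPKM in scramble against 9.39 and 7.34 with hairpins 1 and 7 (limma adjusted p 0.214). The part of these markers in the results below was not tested.

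Of the 93 member rows, 79 had a mean of at least 1 FPKM and were tested: 36 of 39 in complex I, 4 of 5 in II, 8 of 9 in III, 14 of 20 in IV and 17 of 20 in V. NDUFA4 and NDUFA4L2 were counted in complex IV, of which NDUFA4 (now COXFA4) is a subunit. The 14 rows not tested were mostly tissue-restricted isoforms, readthrough genes and second rows of a symbol, and 6 of them were listed at 0 in all libraries. These include COX4I2, COX6A2 and COX8C, isoforms known from lung, muscle and testis. COX7A1, the muscle form of subunit 7A, reached at most 0.14 FPKM and NDUFA4L2 at most 0.05, and the testis form COX6B2 stood at 0.10 and 0.09 in scramble, 0.65 with hairpin 1 and 1.15 with hairpin 7. The cells thus carried mainly the widely expressed isoforms. COX8A had the highest scramble mean of all members (680.4 FPKM), followed by ATP5J2 (611.6) and COX6A1 (579.2). At the low end of the tested members were COX7B2 (3.70, where its paralog COX7B had 47.4), COX6A1P2 (3.88) and ATP5S (4.91). All member rows together made up 1.62% and 1.61% of the summed FPKM in scramble, and 1.64% and 1.45% with hairpins 1 and 7.

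**Figure D1:**
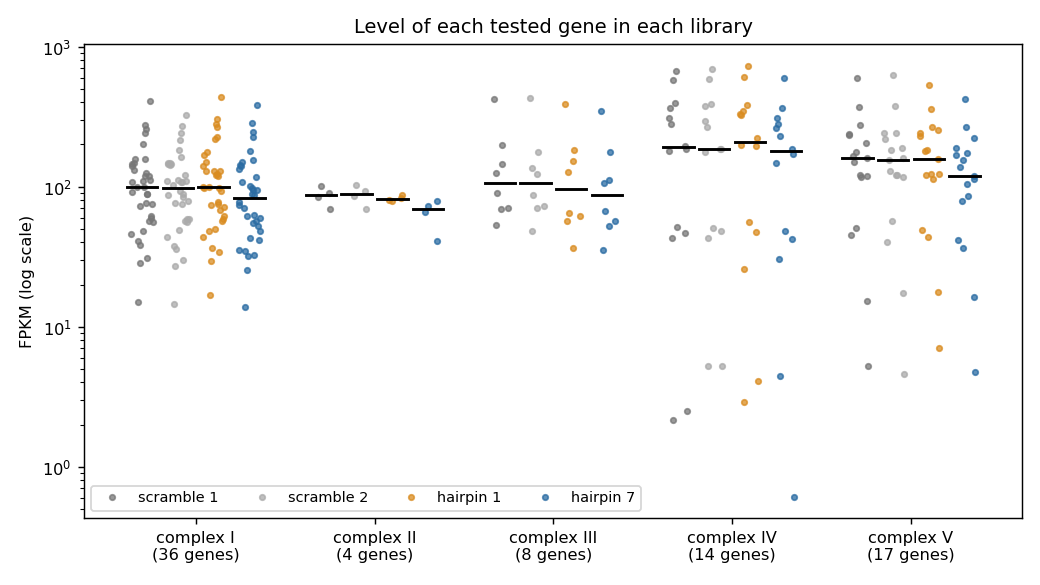
FPKM of every tested member on a log axis, by complex I to V and by library (2 scramble, hairpin 1, hairpin 7); each point is a gene and black bars are medians. Most members lie between 14.8 and 680.4 FPKM in scramble, and the hairpin 7 points sit a little lower than the rest.

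No member passed the test in the comparison of 2 knockdown with 2 scramble libraries. With limma on log2(FPKM + 1) and Benjamini-Hochberg adjustment over 12834 genes, 0 of 79 members had an adjusted p under 0.05, against 328 genes in all (2.56%; 142 lower, 1.11%, and 186 higher, 1.45%). Taken without adjustment, 8 members (10.1%) had a p under 0.05, 7 lower and 1 (NDUFC2) higher, against 26.4% of all genes (12.8% lower and 13.6% higher). The log2 change was below 0 for 55 members (69.6%) against 51.7% of genes, and its median was -0.073 against -0.013. After rescaling to the same sum, 48 members were below 0 with a median of -0.034, against 0.023 for all genes, and after quantile normalization 50 were, with a median of -0.044 against -0.022. For 24 members (30.4%) neither hairpin value reached the lower scramble value, against 30.8% of all genes, and for 5 (6.33%) both exceeded the higher one, against 29.5%. The 7 that were lower at an unadjusted limma p were NDUFB3, SDHA, UQCR10, UQCRC2, UQCRFS1, NDUFA4 and ATP5I, and the 5 above scramble were NDUFA5, NDUFA8, NDUFC2, SDHC and ATP5H. In all, 29 members did not overlap between groups (36.7%), against 60.3% of genes. The 95% limma intervals of 55 members stayed within 1.5-fold in both directions. Those of 75 excluded a 1.5-fold rise, and those of only 57 a 1.5-fold fall. These interval counts are for the values as deposited, and the shares among all genes were not counted. The median distance from the estimate to either end was 0.34 on the log2 scale, so small changes were not resolved with 2 libraries a group.

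The pooled values hide that the hairpins differed. Hairpin 7 lay below both scramble libraries for 64 members (81%, against 47% of all genes) and above both for the 5 members above scramble with both hairpins (6.33%, against 41.9%). Hairpin 1 lay below both for 24 (30.4%, against 42.6%) and above both for 39 (49.4%, against 44.4%). The hairpin 7 value was below the hairpin 1 value for 73 of 79 members (92.4%), against 53.9% of genes. The median log2 difference from scramble was 0.037 for hairpin 1 and -0.22 for hairpin 7, where all genes had 0.0071 and -0.026. Both hairpins were measured against the same scramble libraries.

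The size of these differences was small for most members. Hairpin 7 lay at least 1.5-fold below both scramble libraries for 4 members (SDHB, COX6A1, COX6A1P2 and ATP5G1; 5.06%, against 6.64% of genes) and hairpin 1 for 2 (UQCR10 and NDUFA4; 2.53%, against 4.68%). None lay 1.5-fold above both scramble libraries, against 8.28% of genes with hairpin 7 and 6.02% with hairpin 1. When each hairpin library was tested alone, with its variance taken from the scramble pair, 37 members were called lower with hairpin 7 (46.8%, against 19.6% of genes) and 1, SDHC, higher (1.27%, against 15.7%). Those 37 were spread over the chain, with 13 in complex I, 3 in II, 5 in III, 5 in IV and 11 in V. With hairpin 1, 5 members were called lower (6.33%, against 11.6%) and 9 higher (11.4%, against 11.1%). Those called lower with hairpin 1 were NDUFB3, SDHA, UQCR10, UQCRC2 and NDUFA4. These calls compare 1 library with 2 and assume that the lone library varies as the scramble pair does. The median absolute log2 difference of members was 0.062 between the scramble libraries and 0.28 between the hairpins. For all genes it was 0.075 and 0.23. With 1 library per hairpin the assumption could not be checked, and a wider spread would leave fewer calls. The calls were made only on the values as deposited.

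**Figure D2:**
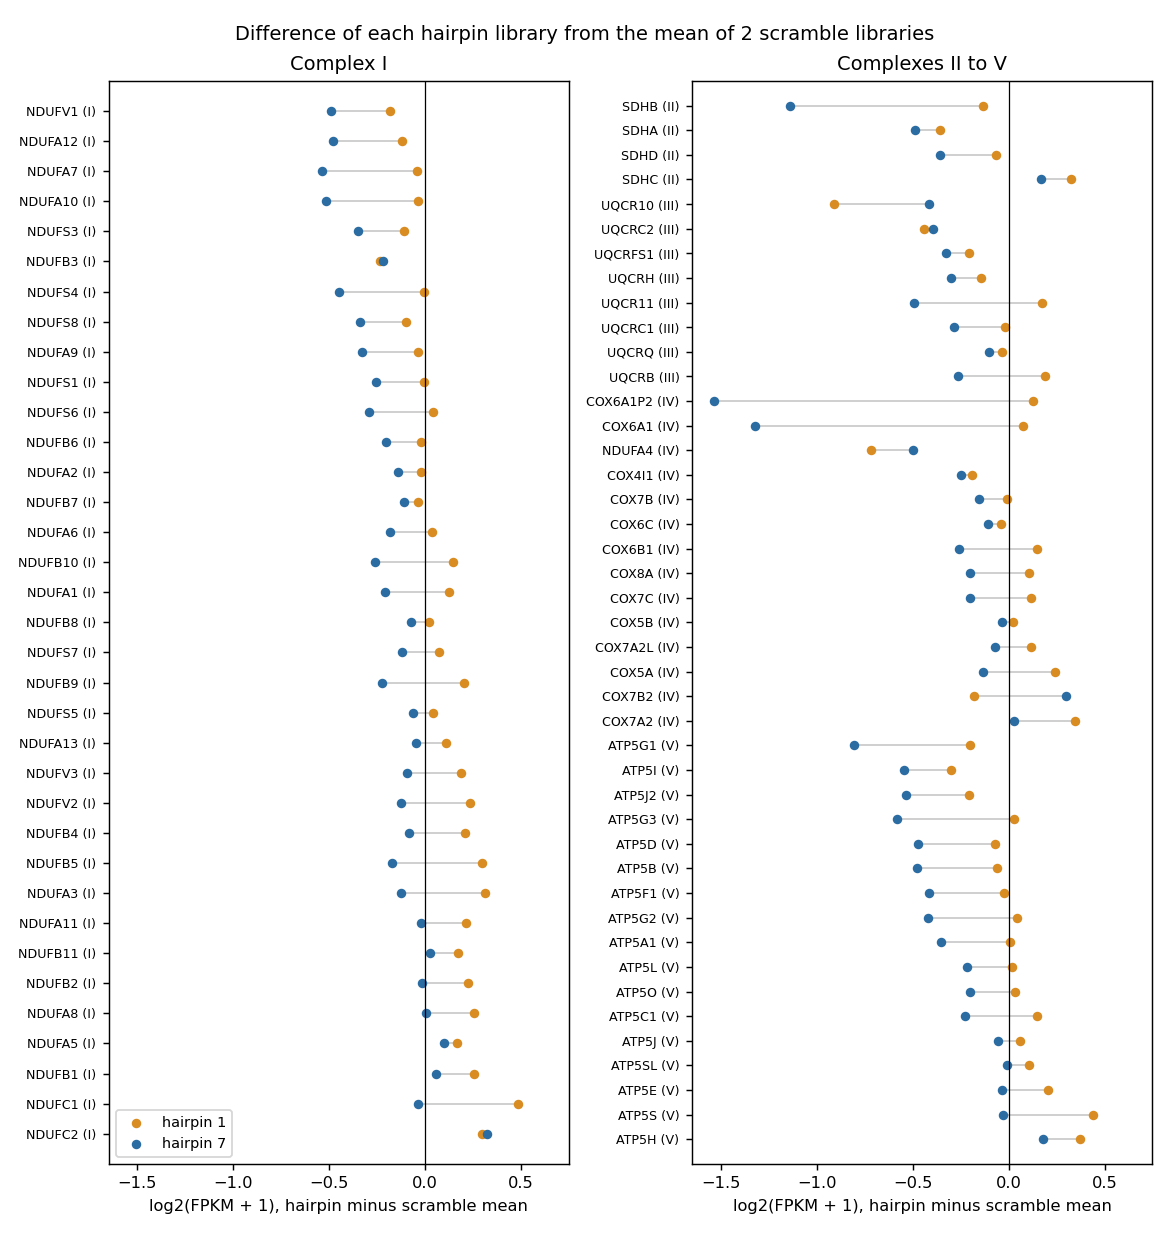
Log2 difference of hairpin 1 and of hairpin 7 from the scramble mean, on the log2(FPKM + 1) scale, for 78 of the 79 tested members, grouped by complex. The hairpin 7 point is below the hairpin 1 point for 72 of those drawn, and in all 17 of complex V.

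The counts with hairpin 7, whose library had the lowest FPKM sum, differed with the scaling. After rescaling the libraries to the same sum, hairpin 7 lay below both scramble libraries for 50 members (63.3%, against 37.4% of genes) and above both for 18 (22.8%, against 51.4%). After quantile normalization the counts were 56 below (70.9%, against 47.1%) and 17 above (21.5%, against 41.7%). Rescaling moved the median of all genes with hairpin 7 from -0.026 to 0.068 and that of the members from -0.22 to -0.11, and with quantile normalization the members stood at -0.13 and all genes at -0.028. Hairpin 1 lay below both scramble libraries for 30 members after rescaling (38%, against 45.4%) and for 24 after quantile normalization (30.4%, against 44.9%), and above both for 34 (43%, against 41.6%) and 38 (48.1%, against 42.3%). Members with both hairpins below scramble numbered 28 after rescaling (35.4%, against 27.6%) and 23 after quantile normalization (29.1%, against 32.1%). Those with both above numbered 5 as deposited and 15 under either scaling (19%, against 32.1% and 28.7%).

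**Figure D3:**
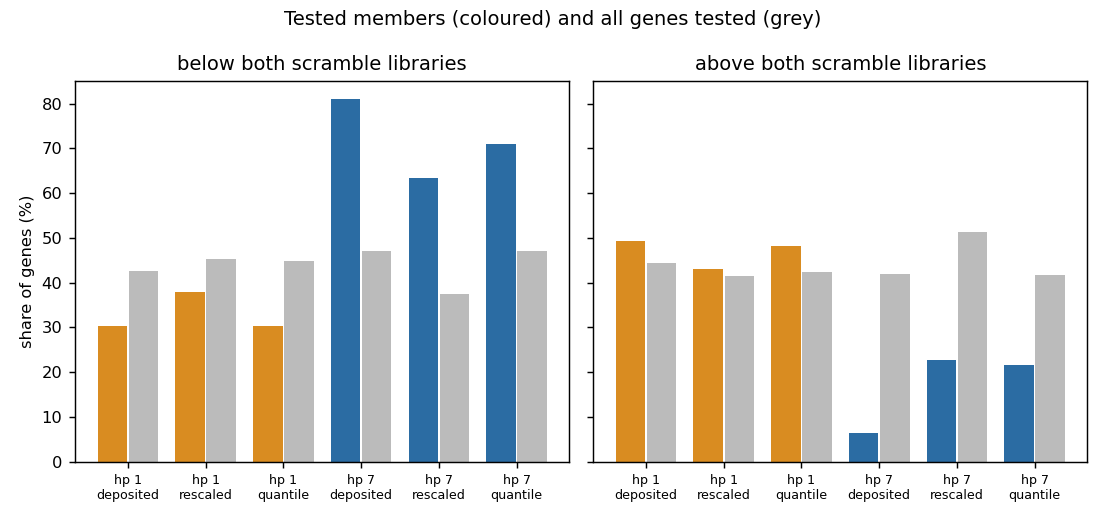
Percent of the 79 tested members and of all 12834 tested genes that lay below or above both scramble libraries, for hairpin 1 and hairpin 7, as deposited, rescaled to the same sum, and after quantile normalization. With hairpin 7 the members' share below scramble is above that of all genes in each scaling (81%, 63.3% and 70.9%).

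Complex I takes electrons from NADH. Its 36 tested genes had a median log2 change of -0.035, with 22 below 0, and medians of 0.091 for hairpin 1 and -0.16 for hairpin 7. After rescaling to the same sum the complex I median turned to 0.0042. The 7 nuclear core subunits, which carry the flavin and iron-sulfur clusters and the quinone site, had a median of -0.13. NDUFV1, the flavin-bearing subunit where NADH is oxidized, stood at 88.87 and 87.88 FPKM in the scramble libraries, 77.76 with hairpin 1 and 62.66 with hairpin 7. Both hairpins lay below both scramble libraries, with a change of -0.34 ± 0.13 and a limma adjusted p of 0.192. The core subunits NDUFS3 (-0.23 ± 0.12) and NDUFS8 (-0.22 ± 0.12) also had no overlap, whereas NDUFS1, NDUFS7 and NDUFV2 (-0.13 to 0.05) did overlap. Under the rescaled sums NDUFS7 turned from -0.02 to 0.014.

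Among accessory subunits of complex I, NDUFC2, a subunit of the membrane arm, had the largest positive change of all members. It stood at 239.55 and 216.54 FPKM in the scramble libraries, 279.58 with hairpin 1 and 284.94 with hairpin 7. The groups did not overlap, the change was 0.31 ± 0.10 with a 95% interval of 0.04 to 0.57, and the limma adjusted p was 0.151. Its partner NDUFC1 stood at 158.18 and 162.08 FPKM in the scramble libraries, 224.29 with hairpin 1 and 156.13 with hairpin 7, so only hairpin 1 lay above scramble (0.22 ± 0.19). NDUFA5 and NDUFA8 were the other complex I genes with both hairpin values above scramble, with pooled changes of 0.13 and 0.13. NDUFA8 differed from the scramble mean by 0.25 with hairpin 1 and by only 0.0053 with hairpin 7. The largest negative changes among accessory subunits were NDUFA12 (-0.30 ± 0.14) and NDUFA7 (-0.29 ± 0.18), both lowest with hairpin 7. NDUFB3 was the opposite case, with like values in both hairpins: 110.69 and 109.95 FPKM in the scramble libraries, 93.47 with hairpin 1 and 94.50 with hairpin 7.

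Complex II oxidizes succinate and also serves in the tricarboxylic acid cycle. All 4 of its tested subunits were without overlap between groups, 3 below scramble and 1 above, where 60.3% of all genes did not overlap (30.8% below and 29.5% above). SDHA, the flavoprotein, stood at 100.80 and 103.28 FPKM in the scramble libraries, 79.33 with hairpin 1 and 72.58 with hairpin 7. Its means were 102 ± 1.75 FPKM in scramble and 76.0 ± 4.77 FPKM in knockdown (mean ± SD, n = 2 each), with a change of -0.42 ± 0.10, an interval of -0.67 to -0.17 and a limma adjusted p of 0.0876. SDHB, the iron-sulfur subunit, stood at 89.47 and 92.76 FPKM in the scramble libraries, 82.93 with hairpin 1 and 40.78 with hairpin 7. The hairpin 7 value was 44.8% of the scramble mean and the hairpin 1 value 91.0%, and the pooled change of -0.64 ± 0.33 had a limma adjusted p of 0.293. Of the membrane anchors, SDHD stood at 83.92 and 85.45 FPKM in the scramble libraries, 80.78 with hairpin 1 and 65.83 with hairpin 7 (-0.21 ± 0.13). SDHC went the other way, at 69.54 and 69.52 FPKM in the scramble libraries, 87.38 with hairpin 1 and 78.34 with hairpin 7, a change of 0.25 ± 0.10 with a limma adjusted p of 0.200. The subunits of this 1 complex thus differed in direction in both hairpin libraries, with SDHC alone above scramble in each.

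Complex III passes electrons from ubiquinol to cytochrome c. All 8 tested genes had a log2 change below 0, with a median of -0.19 (-0.089 with hairpin 1 and -0.31 with hairpin 7), and 4 had both hairpin values below scramble, as did 30.8% of all genes. UQCR10, a small membrane subunit, stood at 68.95 and 70.77 FPKM in the scramble libraries, 36.65 with hairpin 1 and 52.06 with hairpin 7. Its means were 69.9 ± 1.29 FPKM in scramble and 44.4 ± 10.9 FPKM in knockdown (mean ± SD, n = 2 each), a change of -0.66 ± 0.18 with a limma adjusted p of 0.112. Here hairpin 1 was the lower of the hairpins, ranking 294 from the lowest of 12834 genes by its difference from scramble. UQCRC2, a core protein on the matrix side, stood at 89.38 and 87.60 FPKM in the scramble libraries, 65.02 with hairpin 1 and 67.09 with hairpin 7. Its hairpin values were close together and its change was -0.42 ± 0.09 (interval -0.64 to -0.19, limma adjusted p 0.0790). UQCRC1, the partner core protein, stood at 124.52 and 135.20 FPKM in the scramble libraries, 128.11 with hairpin 1 and 106.44 with hairpin 7, so that only hairpin 7 lay below scramble. The Rieske iron-sulfur protein UQCRFS1 had a log2 difference of -0.27 ± 0.09 and the hinge protein UQCRH one of -0.22 ± 0.11, both without overlap and both short of the threshold. The small subunits UQCRB (-0.04 ± 0.18), UQCRQ (-0.07 ± 0.10) and UQCR11 (-0.16 ± 0.23) overlapped between groups, and UQCRB turned to 0.0041 when the libraries were rescaled.

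Complex IV reduces oxygen. Its 14 tested genes had a median log2 change of -0.053 (0.091 with hairpin 1 and -0.18 with hairpin 7), and 3 had both hairpin values below scramble (COX4I1, COX6C and NDUFA4), as did 30.8% of all genes. NDUFA4 had the smallest adjusted p of all members. It stood at 43.31 and 43.18 FPKM in the scramble libraries, 25.94 with hairpin 1 and 30.37 with hairpin 7. The means were 43.2 ± 0.0919 FPKM in scramble and 28.2 ± 3.13 FPKM in knockdown (mean ± SD, n = 2 each), the change was -0.61 ± 0.11 with an interval of -0.90 to -0.31, and the limma adjusted p was 0.0671. Both hairpins lay well below the scramble pair, and by the hairpin 1 difference from scramble it ranked 490 from the lowest of all genes. COX4I1, the widely expressed form of subunit 4, had lower values with both hairpins too, at 363.03 and 375.91 FPKM in the scramble libraries, 322.97 with hairpin 1 and 311.21 with hairpin 7 (-0.22 ± 0.10). The catalytic subunits themselves are encoded in mitochondrial DNA.

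COX6A1, the widely expressed form of subunit 6A, separated the hairpins most sharply among abundant members. It stood at 576.54 and 581.93 FPKM in the scramble libraries, 610.87 with hairpin 1 and 230.68 with hairpin 7. The hairpin 7 value was 39.8% of the scramble mean and the hairpin 1 value 105%. By the difference between hairpins it ranked 80 from the lowest of 12834 genes, and by the hairpin 7 difference from scramble it ranked 163. The pooled change of -0.62 ± 0.46 had an adjusted p of 0.430 with limma, and without hairpin 7 the change was 0.077. COX6A1P2, a near-identical copy, stood at 2.49 and 5.26 FPKM in the scramble libraries, 4.10 with hairpin 1 and 0.61 with hairpin 7. RSEM, named in the submitters' processing notes, divides reads between such copies, so the value of the low copy is uncertain. In the same way COX5A, COX6B1, COX7A2L, COX7C and COX8A lay above both scramble libraries with hairpin 1 and below both with hairpin 7, by smaller differences. This pattern was not particular to complex IV. NDUFC1 and NDUFV2 of complex I, UQCR11 and UQCRB of III and ATP5C1 of V also had it. Its share among all genes was not counted. COX8A stood at 671.50 and 689.31 FPKM in the scramble libraries, 731.53 with hairpin 1 and 591.38 with hairpin 7. COX5B stood at 196.21 and 185.73 FPKM in the scramble libraries, 193.93 with hairpin 1 and 186.32 with hairpin 7. COX5A (220.82 FPKM) and COX7A2 (347.21 FPKM) were highest with hairpin 1, against scramble means of 186 and 273. The direction of COX5B and COX8A (-0.049) was not stable, since COX5B turned to 0.034 after rescaling and 0.028 after quantile normalization, and COX8A to 0.11 with quantile normalization.

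**Figure D4:**
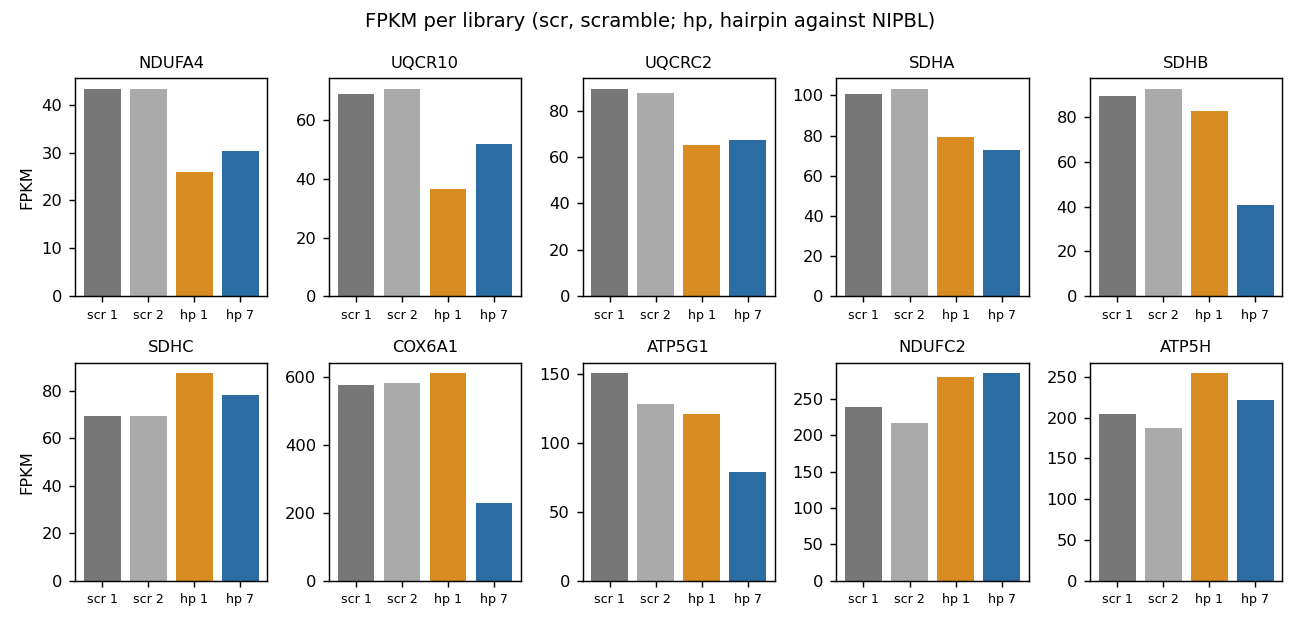
FPKM per library of NDUFA4, UQCR10, UQCRC2, SDHA, SDHB, SDHC, COX6A1, ATP5G1, NDUFC2 and ATP5H, as bars from 0 for 2 scramble libraries, hairpin 1 and hairpin 7. NDUFA4 and UQCRC2 are lower in both hairpins, SDHB and COX6A1 are lowest with hairpin 7 (40.78 and 230.68 FPKM), and SDHC, NDUFC2 and ATP5H are higher in both.

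Complex V makes ATP. Its 17 tested genes had a median log2 change of -0.17, with medians of 0.029 for hairpin 1 and -0.35 for hairpin 7, and the hairpin 7 value was below that of hairpin 1 in all 17. In the F1 head, ATP5B, which encodes the catalytic beta subunit, stood at 372.24 and 375.57 FPKM in the scramble libraries, 359.11 with hairpin 1 and 267.76 with hairpin 7 (-0.27 ± 0.16). ATP5A1 (alpha) had -0.17 ± 0.15 and ATP5C1 (gamma) -0.04 ± 0.15, and ATP5C1 turned to 0.00060 after rescaling and 0.0033 after quantile normalization. The genes ATP5G1, ATP5G2 and ATP5G3 encode the same mature c subunit of the proton-driven ring. ATP5G1 stood at 150.39 and 128.30 FPKM in the scramble libraries, 120.80 with hairpin 1 and 78.90 with hairpin 7, a change of -0.50 ± 0.23 with a limma adjusted p of 0.236. With hairpin 7 ATP5G1 was at 56.6% and ATP5G3 at 66.4% of the scramble mean, and the 3 genes had a median difference of -0.58 with hairpin 7 and 0.029 with hairpin 1. A pseudogene copy, ATP5G1P6, stood at 0.40 and 0.35 FPKM in scramble against 3.92 and 3.58 with hairpins 1 and 7, and the split of reads between the copies is uncertain.

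Among the other parts of ATP synthase, ATP5I (subunit e) and ATP5J2 (subunit f), which sit at the base of the enzyme, lay below scramble with both hairpins. ATP5I stood at 50.79 and 56.75 FPKM in the scramble libraries, 43.49 with hairpin 1 and 36.50 with hairpin 7 (-0.42 ± 0.13, limma adjusted p 0.132). ATP5J2 stood at 593.12 and 630.14 FPKM in the scramble libraries, 529.15 with hairpin 1 and 422.26 with hairpin 7 (-0.37 ± 0.15). ATP5H, subunit d of the peripheral stalk, was the member of complex V above scramble with both hairpins, at 204.73 and 187.53 FPKM in the scramble libraries, 253.91 with hairpin 1 and 221.63 with hairpin 7. Its change of 0.27 ± 0.12 had a limma adjusted p of 0.217. ATP5S and ATP5SL (now DMAC2L and DMAC2), which the symbol rule also takes in, are not subunits of the enzyme, and ATP5S had a difference of 0.20 ± 0.20.

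Genes that work with the chain, from lists chosen with the study's results known, were read in the same fit. Of 53 assembly factors, 1 was called higher and none lower, against 1.45% and 1.11% of all genes. Without adjustment, 9 had a limma p under 0.05 and were lower and 2 were higher, against 12.8% and 13.6% of all genes. A change below 0 was seen in 42, against 51.7% of genes, and the median was -0.15. By hairpin, the median difference from scramble was -0.056 with hairpin 1 and -0.25 with hairpin 7, where the members had 0.037 and -0.22. The called gene was COX20, which helps insert subunit 2 into complex IV. It stood at 39.72 and 32.61 FPKM in scramble, 89.86 with hairpin 1 and 89.47 with hairpin 7, and rose by 1.29 ± 0.12 (limma adjusted p 0.0218). That call was lost without the first scramble library (adjusted p 0.209, change 1.43), without the second (0.259, 1.15), with the scramble libraries averaged (0.268) and with every row above 0 in a library (0.115). SURF1, another complex IV assembly factor, stood at 31.01 and 30.87 against 46.91 and 40.31 FPKM (0.48 ± 0.11, limma adjusted p 0.0910), and COA7 at 16.71 and 16.89 against 12.55 and 12.32 (-0.41 ± 0.10).

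Chain genes outside the symbol rule, NDUFAB1, CYC1 and CYCS, all had changes below 0, and none was called. CYC1, the cytochrome c1 of complex III, stood at 175.58 and 170.41 FPKM in scramble, and at 178.26 and 114.04 with hairpins 1 and 7. The 13 subunits encoded in mitochondrial DNA had a median of 0.34 with hairpin 1 and -0.30 with hairpin 7, and none passed the test. Their FPKM summed to 69098 and 63857 in scramble, 82674 with hairpin 1 and 54603 with hairpin 7. By this sum the hairpins lay on opposite sides of scramble. By gene, 2 (MT-ND1 and MT-ND3) lay above both scramble libraries with both hairpins, against 29.5% of all genes. With both hairpins, 1 (MT-CO1) lay below both scramble libraries, against 30.8% of all genes.

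Of 14 tested regulators of chain genes, none was called, and 10 had changes below 0 (median -0.13), as did 51.7% of all genes. Their median difference from scramble was -0.12 with hairpin 1 and -0.085 with hairpin 7. At an unadjusted limma p under 0.05, 2 (PPRC1 and TFAM) were lower and 1 (GABPB2) higher, against 12.8% and 13.6% of all genes. NRF1 stood at 8.59 and 9.69 against 8.39 and 8.46 FPKM, and GABPA at 10.65 and 11.30 against 11.08 and 11.33. PPRC1, a coactivator of NRF1, stood at 13.34 and 14.66 against 9.21 and 10.23 (-0.48 ± 0.12). TFAM, which packs mitochondrial DNA and takes part in its transcription, stood at 35.55 and 34.29 against 25.56 and 27.92 (-0.37 ± 0.10). Of 18 tricarboxylic acid cycle genes, none was called and 15 had changes below 0, against 51.7% of all genes, with a median of -0.19. Their median difference from scramble was -0.062 with hairpin 1 and -0.29 with hairpin 7, so the lower values were mostly those of hairpin 7. At an unadjusted limma p under 0.05, 4 of them were lower, DLAT (-0.38 ± 0.10) and CS (-0.30 ± 0.09) among them, and 1 higher, against 12.8% and 13.6% of all genes. The higher one was IDH2, a mitochondrial isocitrate dehydrogenase, at 13.37 and 12.73 against 16.93 and 23.33 FPKM (0.57 ± 0.17, limma adjusted p 0.130).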

How the data were processed

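RNA-seq of total RNA was measured in 4 libraries of NUGC3 cells, 2 scramble and 2 NIPBL knockdown (hairpin 1 and hairpin 7), grouped by the labels. The authors deposited FPKM per gene, made with STAR and RSEM per the submitters' processing notes, with no version. The genome build, annotation, filters and strandedness are unstated (not given in the sources used here), so whether overlapping and antisense genes were told apart is unknown. FPKM keep no read depth, so no count test was made. Of the table, 291033 rows without a gene name, holding 8.47% to 9.27% of the FPKM of a library, were left out.

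The 12834 genes averaging 1 FPKM or more were fitted with limma 3.58.1 in R 4.3.3 on log2(FPKM + 1), with a trended empirical Bayes variance, two-sided tests, Benjamini-Hochberg adjustment over all of them and a threshold of 0.05. Fold changes on this scale understate those of low genes. An exact permutation test of 2 against 2 libraries cannot give a p below 0.333 and was not used. The fit was run on simulated, independent libraries with known changes, as a check of the mean estimate. That run does not show how far the calls hold for these libraries. Promoters were matched by symbol to RefSeq (GRCh38.p14).

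Named members are the core subunits, paralogs, and the most and least changed, most and least abundant and most hairpin-divergent genes of the complexes, and of each related list the 3 genes with the smallest p. NDUFB3, NDUFA5, NDUFA8, COX6C, COX7C, ATP5G1P6, MT-CO1, NRF1, GABPA and the marker genes shown were named after their values were seen. The members and lists were chosen with earlier results of these data known. Alternatives covered the pseudocount (0.1 and 0.5), the filter, scaling, the variance trend, averaged scramble libraries and leaving out each library. Keeping every Ensembl row above 0 in a library was an alternative chosen after seeing the data. 1 member counted in the totals is not reported by name here.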

Additional observations from a re-analysis of the deposited data

How the results depend on the processing

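The NIPBL change lost its call with every row above 0 in a library (-1.42, limma adjusted p 0.118) and with the scramble libraries averaged (-1.42, adjusted p 0.281), and ranged from -1.57 to -1.27 when a library was left out. All genes called, 328 as reported, numbered 2574 with no filter, where limma finds most residual variances to be 0 and limma's fit is unreliable, 1 with every row above 0 (4275 at an unadjusted p under 0.05), 0 with averaged scramble libraries (975 unadjusted), and 0 to 4532 when a library was left out: 0 without either scramble library (1060 and 1052 unadjusted), 4532 without hairpin 1 and 2915 without hairpin 7. Members called lower numbered 7 with no filter, and 0 to 37 when a library was left out, and members called higher 0 to 9, the lone hairpin being assumed to vary like the scramble pair. No member was called under the other settings fitted to all 4 libraries, where the smallest member adjusted p ran from 0.0587 to 0.138 (0.622 with averaged scramble libraries). The member median was -0.22 without hairpin 1 and 0.037 without hairpin 7. Among the named genes, rescaling to the same sum reversed NDUFS7 (0.014), UQCRB (0.0041), COX5B (0.034) and ATP5C1 (0.00060), and quantile normalization COX5B (0.028), COX7B2 (-0.0026), COX8A (0.11) and ATP5C1 (0.0033). Leaving out a library reversed other named genes, with log2 changes ranging over NDUFS7 -0.12 to 0.074, UQCRB -0.26 to 0.19, UQCRQ -0.15 to 0.013, COX5B -0.046 to 0.033, COX7B2 -0.43 to 0.55, ATP5C1 -0.23 to 0.15, NDUFC1 -0.036 to 0.48, NDUFV2 -0.13 to 0.23, COX5A -0.13 to 0.24, COX7A2L -0.072 to 0.12, ATP5S -0.031 to 0.44, UQCR11 -0.49 to 0.17, COX6A1 -1.32 to 0.077, COX6A1P2 -1.54 to 0.13, COX6B1 -0.26 to 0.15, COX7C -0.20 to 0.12, COX8A -0.20 to 0.10, ATP5A1 -0.35 to 0.0093, ATP5G2 -0.42 to 0.043, ATP5G3 -0.58 to 0.029 and CYC1 -0.60 to 0.043. Some of these settings put fewer libraries or other genes into the fit, and the cause of each shift was not tested. A minimum of 5 FPKM left COX7B2 and COX6A1P2 untested. No paired analysis was possible because the labels carry no replicate number that ties a scramble library to a hairpin library. Without counts, depth sets no stated limit, and 2 libraries a group and 1 per hairpin limit the precision.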
